A study of Mus musculus with 7 samples.

Results

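Id1, Id2, Id3 and Id4 encode the 4 mouse inhibitor of DNA binding proteins, and these 4 of the 32285 genes in the count files were followed through the neural crest and its companion lineages. The genes were taken by symbol, and all 4 passed the filter on low counts in each class of cells described here. The data are single-cell RNA sequencing of EGFP-positive cells sorted from mouse embryos, in which Wnt1-Cre had switched on the ROSA-EGFP reporter. The Wnt1 regulatory sequence is active in the dorsal neural tube, so that the sorted cells held neural crest cells (NCCs), their descendants and neural tube cells. The strain of all libraries is labelled Swiss-Webster, and the study's methods describe the background as mixed. Control embryos were Wnt1-Cre/+;ROSA-EGFPf/+, with 1 library at E8.5, 1 at E9.5 and 2 at E10.5. The mutant libraries, 1 at E9.5 and 2 at E10.5, are called Tbx1 null in their titles, whereas their genotype field reads Wnt1-Cre/+;Tbx1+/-;ROSA-EGFPf/+, and the name null is kept here for all 3. A supplementary sample list of the study gives them as Tbx1-/-, and its methods call them null. Tbx1 encodes a T-box transcription factor of the tissues that surround the pharyngeal NCCs, and the study's methods describe a Tbx1 allele that is lost in the whole embryo. Each library was a pool of embryos. Dissections differed: the front of the embryo at E8.5, the pharyngeal apparatus and heart at E9.5, and at E10.5 the heart with the pharyngeal region without arch 1, worded as arches 2 to 6 for controls and as below arches 1 for null embryos. The study's supplement adds the neural tube for both.

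Id proteins carry a helix-loop-helix domain but no basic region. They pair with E proteins (Tcf3, Tcf4 and Tcf12) and so keep bHLH factors such as Neurog1 and Neurod1 off their E-box sites, which delays differentiation. Id1, Id2 and Id3 are classic targets of BMP signaling through Smad1, Smad5 and Smad9, and Id2 is a known gene of the early cranial neural crest. Id3 acts in the early crest of several vertebrates, and Id4 is best known from neural progenitors.

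In the GRCm38 (mm10) build with GENCODE M21, Id1 is at chr2:152736251-152737410 on the plus strand, Id2 at chr12:25093799-25097140 on the minus strand, Id3 at chr4:136143497-136145755 on the plus strand and Id4 at chr13:48261228-48266026 on the plus strand. All 4 are protein-coding. Promoter sequence from RefSeq (GRCm38.p6) is shown for Id2 and Id4. None was at hand for Id1, and no stretch is printed for Id3. In mesenchymal cells at E10.5 all 4 genes were higher in both null libraries than in both controls, as were 36.5% of the 15880 genes tested. None of the 4 passed the test of genotype described below, and a link to the promoter sequences was not tested. The Id4 stretch is the 250 bases before the RefSeq start on the plus strand, chr13:48260866-48261115. The Id2 stretch is chr12:25096254-25096342 on the minus strand, 250 to 162 bases before the RefSeq start and within an intron of a longer GENCODE transcript. Both are written 5′ to 3′, and capitals mark GGCGCC, a GC-rich string that BMP Smads can bind, CCAAT on either strand (ATTGG on the reverse), and the E-box CANNTG.
Id2: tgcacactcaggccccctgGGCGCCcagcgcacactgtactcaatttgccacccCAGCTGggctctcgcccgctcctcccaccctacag
Id4: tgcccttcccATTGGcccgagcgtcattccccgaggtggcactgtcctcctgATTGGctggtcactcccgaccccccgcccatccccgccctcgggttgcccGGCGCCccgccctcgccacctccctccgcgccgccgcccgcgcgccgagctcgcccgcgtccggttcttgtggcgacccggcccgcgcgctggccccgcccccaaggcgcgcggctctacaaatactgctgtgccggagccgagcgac
GGCGCC begins 231 bases before the start in Id2 and 148 bases before it in Id4. The E-box CAGCTG of Id2 begins at base 196, and the Id4 stretch has CCAAT in reverse at bases 240 and 198. Id2 has 3 matches of CCAAT nearer its start, outside the printed stretch and within the 250 bases searched. TATAAA was also searched, on both strands, and has no match in either stretch. No match overlaps another. Among the 250 bases before the start of 32851 mouse genes, GGCGCC occurs in 9.59%, CCAAT in 33.8%, CANNTG in 66.2% and TATAAA in 12.4%.

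Cells were assigned to 4 classes by the UMIs of a few genes. Mesenchymal cells had at least 2 UMIs of Twist1, Prrx1 and Prrx2 together, Sox10 cells at least 2 UMIs of Sox10, neural progenitor cells at least 1 UMI of Sox2 and none of Twist1, and neuronal cells at least 3 UMIs of Tubb3 and Stmn2 together. A cell could meet several rules. The libraries held 140264662 to 234844769 UMIs, and 69.7% to 93.3% of their barcodes were kept, which gave 5587 to 9555 cells each. Any 2 libraries shared 0 to 44 cell barcodes. Summed markers of a class were highest in that class in 7 of 7 libraries for mesenchymal and neural progenitor cells, in 6 for neuronal cells and in 5 for Sox10 cells. The mesenchymal list includes Twist1, Prrx1 and Prrx2, the genes of its rule, and neural progenitors lack Twist1 by rule. The mesenchymal count was therefore in part set by the rule and is no independent check. Summed blood and endothelium markers were at or below 7.2 UMIs per 1000000 UMIs of the class (CPM) in all classes, with Hbb-bt and Hbb-bs at 0 in most of them, and epithelium markers at or below 52.5 CPM. Tbx1 itself, over all kept cells, was at 0.555 CPM at E8.5 and at 0.953 and 0.540 CPM in control and null cells at E9.5. At E10.5 it was at 5.69 and 4.07 CPM in the controls (724 and 580 UMIs) and at 2.96 and 3.0 CPM in the null libraries (498 and 378 UMIs). Whether these reads lie outside the deleted part of the gene was not tested, so that the level does not settle the conflict between title and genotype field. The second null library at E10.5 stood apart: 79.6% of its kept cells met the neuronal rule, against 15.8% to 41.0% in the other E10.5 libraries, and Tubb3 reached 494 CPM in its mesenchymal cells, against 23.2 to 95.3 CPM. Of its mesenchymal cells, 29.5% met no other rule, against 75.1% to 95.6% in the other E10.5 libraries. Whether these UMIs came from free RNA or from the cells themselves was not tested. Results are therefore also given for cells that met exactly 1 rule and without that library. At E8.5, 82.6% of Sox10 cells were also mesenchymal by these rules. E8.5 cells were run with kit v2, the null E9.5 library and null E10.5 library 1 with v3 and the others with v3.1, so that stage and dissection cannot be told apart from kit at E8.5.

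The first question was in which lineage each Id gene is transcribed. Id1 was lower in Sox10 and in neuronal cells than in mesenchymal and neural progenitor cells. Id3 was highest in neural progenitors and lower in neuronal than in mesenchymal cells, and its difference between Sox10 and mesenchymal cells missed the threshold. Id2 was lower in neuronal cells than in mesenchymal and neural progenitor cells. Id4 had its lowest median in mesenchymal cells and its highest in neural progenitors. For this comparison only cells that met exactly 1 rule were summed, and classes were compared within libraries with edgeR's quasi-likelihood test, with the library as a block and n = 7. Levels are CPM over all UMIs of the class in a library. Differences are log2 fold changes with their standard error (SE), and a gene was called at an adjusted p below 0.05 over all genes tested. The classes of a library come from 1 pool and 1 reaction. The p-values measure how the difference between classes varies from library to library, and the libraries also differ in stage and genotype. Sox10 cells of exactly 1 rule were few, 18 to 212 per library, with 36 in control E10.5 library 1 and 18 in null E10.5 library 2.

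**Figure D1:**
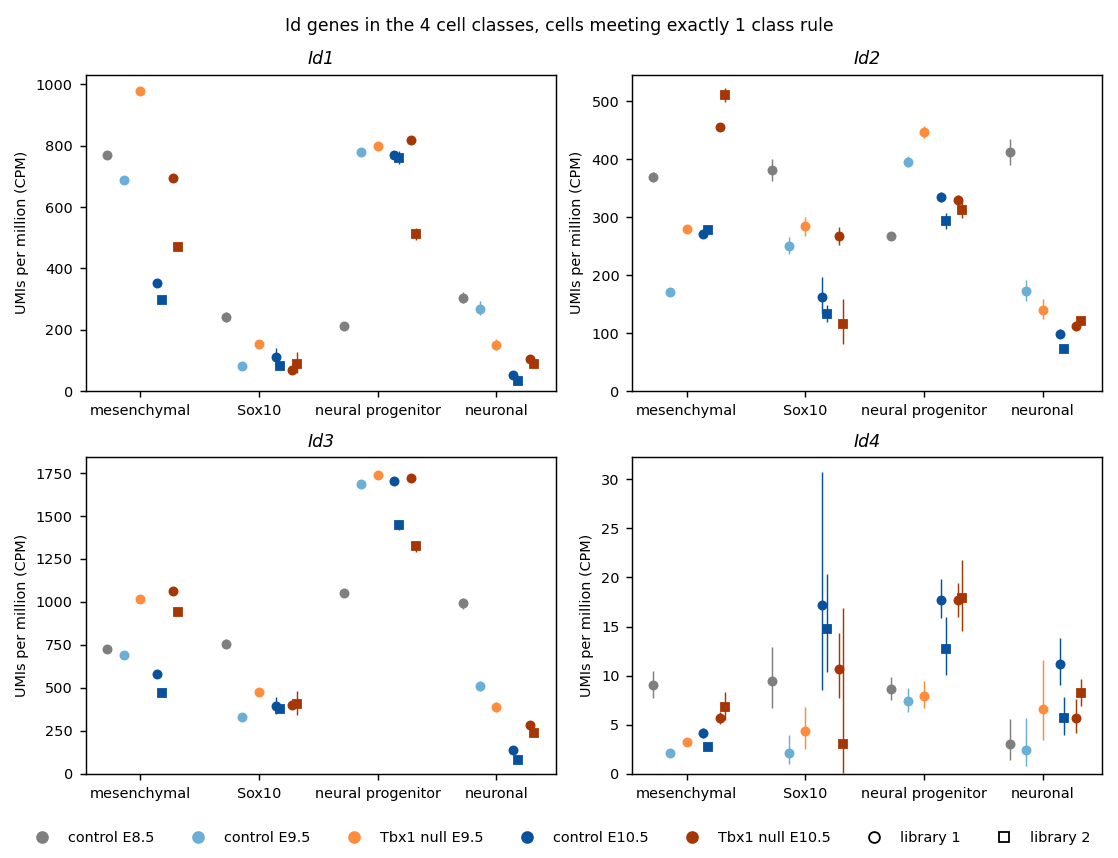
CPM of Id1 to Id4 (linear axis) in cells that met exactly 1 rule, by class and library, with 95% Poisson intervals that cover counting error only. Id1 in Sox10 cells is at 68.3 to 241 CPM and in neural progenitors at 213 to 818 CPM.

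Id1 was at 770, 687 and 979 CPM in mesenchymal cells of control E8.5, control E9.5 and null E9.5. At E10.5 it was at 352 and 296 CPM in the controls and at 694 and 470 CPM in the null libraries. In Sox10 cells Id1 was at 241 CPM at E8.5, at 82.2 and 153 CPM in control and null cells at E9.5, and at 112, 80.4, 68.3 and 88.0 CPM in the 2 control and 2 null libraries at E10.5. All 7 Sox10 values were below the 7 mesenchymal values. The difference was −2.40 (SE 0.39, edgeR adjusted p = 0.00015), and 18.5% of the 13737 genes tested were called between these classes. Neural progenitors had a median of 770 CPM and differed from Sox10 cells by 2.68 (SE 0.40, edgeR adjusted p = 2.5e-05), where 33.5% of genes were called. At E8.5 the order was the other way, with 213 CPM in neural progenitors and 241 CPM in Sox10 cells. Neural progenitor and mesenchymal cells did not pass the test for Id1 (0.28, 95% interval −0.42 to 0.98, 39.9% of genes called).

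Id3 was at 1049 to 1737 CPM in neural progenitors, with a median of 1686 CPM, above its value in the other 3 classes in 7 of 7 libraries. In mesenchymal cells it was at 725, 694 and 1020 CPM in control E8.5, control E9.5 and null E9.5, and at 580, 468, 1063 and 942 CPM in the 2 control and 2 null libraries at E10.5. Neural progenitors were higher than mesenchymal cells by 0.99 (SE 0.30, edgeR adjusted p = 0.011) and higher than Sox10 cells by 1.84 (SE 0.31, adjusted p = 9.0e-05). Sox10 cells, at 331 to 756 CPM, were −0.85 from mesenchymal cells (SE 0.30), with an edgeR adjusted p of 0.054 that missed the threshold. It was called without the E8.5 library (−0.97, adjusted p = 0.0096) and without control E10.5 library 2 (−0.94, adjusted p = 0.046).

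Among cells of exactly 1 rule, neuronal cells had less of 3 Id genes than mesenchymal cells. Over all cells of the neuronal rule, those of several rules included, 8 cell cycle markers summed to a median of 1451 CPM, beside 1574 CPM in mesenchymal, 1588 CPM in neural progenitor and 1340 CPM in Sox10 cells. The differences were −2.26 (SE 0.38) for Id1, −1.22 (SE 0.26) for Id2 and −1.30 (SE 0.30) for Id3, all called by edgeR, with 63.8% of genes called in this comparison and 31.0% called lower. Against neural progenitors all 4 were lower in neuronal cells: −2.54 for Id1, −1.23 for Id2, −2.29 for Id3 and −1.04 for Id4, where 54.9% of genes were called and 26.2% were called lower. Fewer of these 4 calls were left with cells of several rules kept and with control libraries alone. Id3 in neuronal cells spanned a wide range, from 991 CPM at E8.5 through 510 and 387 CPM in control and null cells at E9.5 to 137 and 82.5 CPM in the E10.5 controls and 286 and 239 CPM in the E10.5 null libraries. The E8.5 value lay between the mesenchymal and the neural progenitor value of that stage. None of the 4 genes was called between neuronal and Sox10 cells, where 53.9% of genes were called. Without the E8.5 library, Id2 (−0.85, edgeR adjusted p = 0.0035) and Id3 (−0.74, adjusted p = 0.022) were called lower in neuronal than in Sox10 cells, and Id4 (0.57, adjusted p = 0.047) higher in neuronal than in mesenchymal cells. Without null E10.5 library 2, Id2 was called lower in neuronal than in Sox10 cells (−0.69, edgeR adjusted p = 0.049).

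Id2 had medians of 330 CPM in neural progenitors, 280 in mesenchymal, 251 in Sox10 and 120 in neuronal cells. At E8.5 neuronal cells had the highest Id2 of the 4 classes, 412 CPM. The first 3 classes in this order did not pass the adjusted threshold against each other. Neural progenitor against mesenchymal cells was 0.02 (95% interval −0.49 to 0.52). Sox10 against mesenchymal cells was −0.61 (95% interval −1.12 to −0.09, edgeR adjusted p = 0.12) and neural progenitor against Sox10 cells 0.62 (95% interval 0.11 to 1.14, adjusted p = 0.074), and both of these intervals leave out 0. Without the E8.5 library the last of these became 0.73 and Sox10 against mesenchymal cells −0.70, both called. Id4 had medians of 12.7 CPM in neural progenitors, 9.43 in Sox10, 5.70 in neuronal and 4.16 in mesenchymal cells. Neural progenitors exceeded mesenchymal cells for Id4 by 1.38 (SE 0.27, edgeR adjusted p = 0.00026). Sox10 cells were 0.85 above mesenchymal cells for Id4 (SE 0.31, edgeR adjusted p = 0.060), and without the E8.5 library 1.05 above them (adjusted p = 0.0076). With the 4 libraries of E10.5 alone, all 4 Id genes were called between Sox10 and mesenchymal cells. The share of all genes called in that fit is not given here. With the 4 control libraries alone, no Id gene was called between neural progenitor and mesenchymal or between Sox10 and mesenchymal cells. With cells of several rules kept in each of their classes, the neuronal against mesenchymal difference of Id1 was −0.72 and that of Id3 −0.07, neither called.

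**Figure D2:**
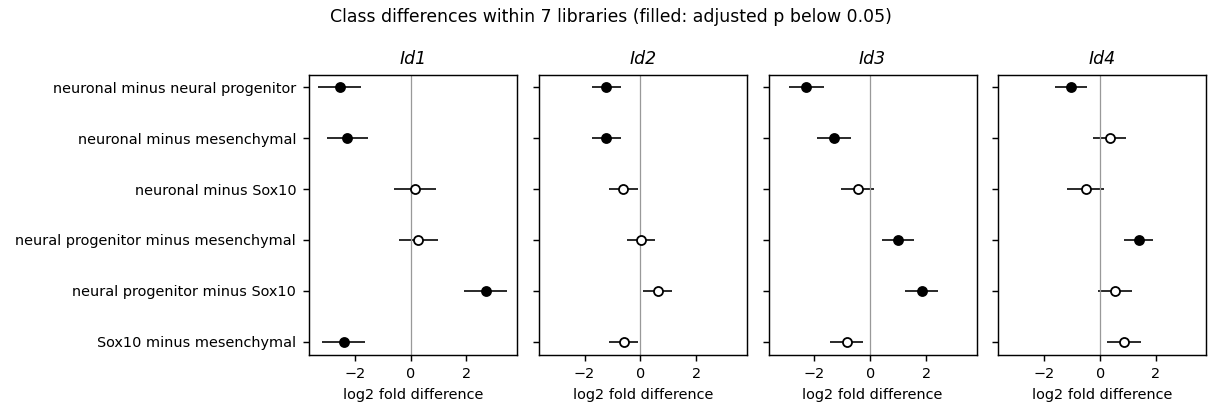
Differences between classes of Id1 to Id4 within 7 libraries (log2 fold change, points) with 95% intervals; filled points passed an edgeR adjusted p below 0.05. Neuronal minus neural progenitor is below 0 for all 4 genes, from −2.54 for Id1 to −1.04 for Id4.

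Shares of cells with a UMI were taken after thinning each cell to 5000 UMIs, since depth differed between classes. Id3 was detected in 75.3% to 95.6% of mesenchymal cells over the 7 libraries, and in 90.7% to 99.0% of them without thinning. Id1 was detected in 55.4% to 91.5% of mesenchymal cells (74.0% to 97.5% unthinned). No class is known to lack these genes. The lowest shares were those of neuronal cells that met no other rule, where Id1 was found in 7.5% to 58.7% (12.1% to 87.3% unthinned) and Id3 in 16.3% to 86.0%. Median depth was 8328 to 19267 UMIs in those cells and 16268 to 25554 UMIs in mesenchymal cells. Id4 was found in 1.3% to 5.4% of mesenchymal and 3.1% to 6.6% of neural progenitor cells, so that its values rest on few UMIs per cell.

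Several Id genes were often detected in the same cell barcode. Among mesenchymal cells thinned to 5000 UMIs, at least 3 of the 4 Id genes were found in 43.8% and 37.7% of cells of the E10.5 controls and in 69.8% and 58.7% of cells of the null libraries. In neuronal cells of exactly 1 rule the same shares were 3.6% and 1.6% in controls and 7.5% and 9.2% in null libraries. In neural progenitors they were 47.2% and 33.2% against 47.9% and 36.7%, where the genotypes overlapped. The part of free RNA in these shares was not tested. Id1 and Id3 were found together in 48.5% to 88.0% of mesenchymal cells, 1.01 to 1.16 times the share that independent detection gives. In neuronal cells this ratio was 1.03 to 1.96. Cells of 1 library share their pool and depth, and these shares are a description without a test.

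The levels of Sox10 cells differed between stages. Over all cells of the rule, Id1 was at 557 CPM at E8.5, at 272 and 404 CPM in control and null cells at E9.5, and at 85.8 to 104 CPM in the 4 libraries at E10.5. Id2 was at 394 CPM at E8.5 and at 148 to 225 CPM at E10.5, with 231 and 323 CPM in between. Sox10 cells at E8.5 were mostly mesenchymal by rule as well, as given above, and the Id1 value of the 174 cells that met no other rule was 241 CPM. At E9.5, 55.7% of control and 59.3% of null Sox10 cells were also mesenchymal, against 3.4% to 21.5% at E10.5. In E9.5 Sox10 cells of exactly 1 rule Id1 was at 82.2 CPM in control and 153 CPM in null cells, and the E10.5 values of such cells are given above. The part of the overlap in these levels was not tested. In neural progenitors Id1 was at 237 CPM at E8.5, at 715 and 726 CPM in control and null cells at E9.5, and at 705 and 432 CPM in control and 625 and 385 CPM in null cells at E10.5. In control mesenchyme Id1 was at 639 CPM at E8.5, 666 CPM at E9.5 and 429 and 301 CPM at E10.5. With 1 library at E8.5 and 1 control at E9.5, no test of stage was run.

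At E10.5 the question was whether loss of Tbx1 changes the Id genes in crest-derived cells. In mesenchymal cells all 4 genes were higher in both null libraries than in both controls, and none was called. Id1 was at 429 and 301 CPM in the controls and at 740 and 473 CPM in the null libraries. Id2 was at 283 and 277 CPM against 431 and 402 CPM. Id3 was at 793 and 485 CPM against 1289 and 1156 CPM. Groups did not overlap for these genes, nor for Id4, at 5.68 and 2.98 CPM against 10.7 and 10.8 CPM. Of all 15880 genes tested in mesenchymal cells, 36.5% had both null libraries above both controls. The null minus control difference was 0.57 (SE 0.34) for Id1, 0.39 (SE 0.24) for Id2, 0.76 (SE 0.31) for Id3 and 1.13 (SE 0.32) for Id4, with edgeR adjusted p of 0.45, 0.47, 0.31 and 0.22. The test called 29 genes in this class, 0.183% of those tested. Before adjustment Id3 and Id4 were below 0.05 in that test, as were 14.8% of all genes. DESeq2, which called 4.63% of genes, called Id4 (1.16, adjusted p = 0.043) and none of the other 3. edgeR without the filter on low counts, a setting that called many more genes in all, also called Id4 (1.11). With 2 libraries per genotype, each a pool, the p-values measure the spread between pools.

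The 95% intervals of these differences reach from −0.09 to 1.23 for Id1, from −0.08 to 0.86 for Id2, from 0.16 to 1.36 for Id3 and from 0.50 to 1.77 for Id4. In mesenchymal cells that met no other rule the differences were 0.70 for Id1, 0.65 for Id2, 0.78 for Id3 and 0.68 for Id4, with edgeR adjusted p from 0.30 to 0.40. Id4 in those cells was at 4.16 and 2.77 CPM in controls and 5.67 and 6.81 CPM in null libraries. Without the second null library the differences over all mesenchymal cells were 0.94, 0.54, 0.93 and 1.23 in the order Id1 to Id4, with adjusted p from 0.11 to 0.18, where the lone null library is taken to vary like the controls. Markers of other lineages moved with genotype in mesenchymal cells: the 7 neural progenitor markers summed to 180 and 71.2 CPM in controls and 274 and 539 CPM in null libraries, and the 7 Sox10-class markers to 119 and 56.2 against 231 and 327 CPM. The 8 neuronal markers summed to 188 and 231 CPM in controls and to 178 and 664 CPM in null libraries. Epithelium markers were at 31.9 and 26.0 CPM against 34.6 and 52.5 CPM. Their part in the differences was not tested, beyond the values for cells of exactly 1 rule.

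**Figure D3:**
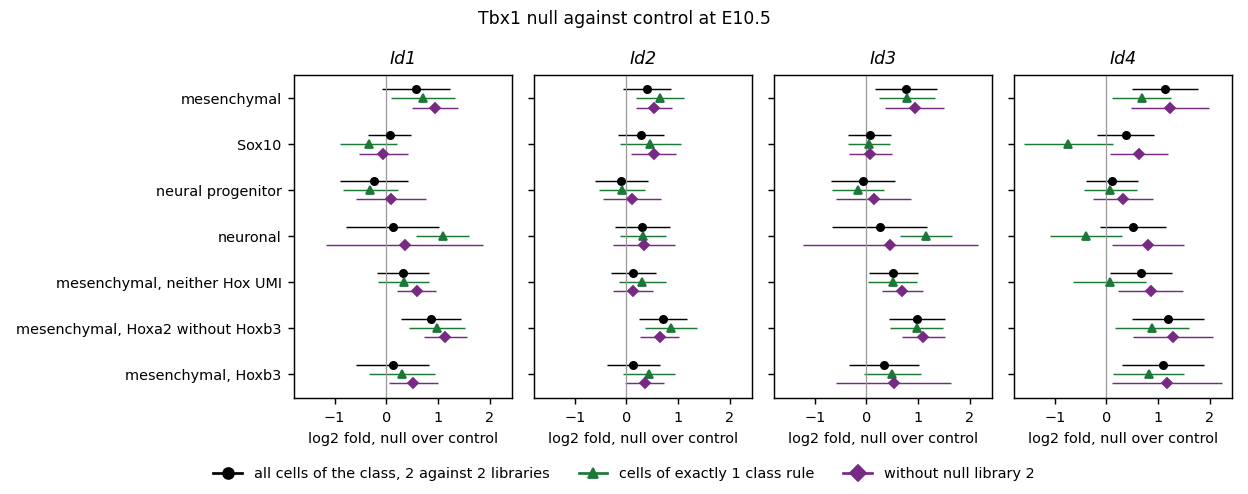
Null minus control difference at E10.5 (log2 fold change with 95% interval) of Id1 to Id4 in the 4 classes, for all cells of a rule, for cells of exactly 1 rule and without null library 2. In mesenchymal cells all points lie above 0, and in neural progenitors the 4 values over all cells lie between −0.24 and 0.11.

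In the other classes the Id genes had smaller differences over all cells of the rule. In neural progenitors Id1 was at 705 and 432 CPM in controls and at 625 and 385 CPM in null libraries, and Id3 at 1691 and 974 against 1517 and 1140 CPM. Groups overlapped for all 4 genes there, where 24.9% of genes had both null libraries on top, and edgeR called none of 15247 genes (0.0%, with 783 genes, or 5.14%, at an unadjusted p below 0.05, and 40 called by DESeq2). In Sox10 cells Id1 was at 92.3 and 85.8 CPM in controls and at 87.0 and 104 CPM in null libraries, and its difference was 0.06 (95% interval −0.36 to 0.48). In Sox10 cells of exactly 1 rule the differences were −0.35 for Id1 and −0.74 for Id4, neither called. Id3 alone did not overlap in Sox10 cells, at 474 and 417 CPM against 478 and 479 CPM, with 25.1% of genes of that kind and 0.0931% called. In neuronal cells Id2 was at 219 and 140 CPM against 232 and 236 CPM and Id4 at 11 and 7.56 against 16.6 and 11.2 CPM. Each null library was above each control for these 2 genes, as for 26.6% of genes, and 0.0129% of genes were called.

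Neuronal cells that met no other rule gave other values. Id1 was at 52.5 and 31.1 CPM in the controls and at 105 and 87.3 CPM in the null libraries, and Id3 at 137 and 82.5 against 286 and 239 CPM. Each null library was above each control for both genes, as for 32.2% of the 12371 genes tested in these cells, of which 0.105% were called. The differences were 1.09 (SE 0.26) for Id1 and 1.15 (SE 0.25) for Id3, with edgeR adjusted p of 0.11 and 0.10, and neither was called. Id4 turned to −0.39 in these cells, not called. Over all neuronal cells they were 0.12 (SE 0.46) and 0.26 (SE 0.47). The larger difference in cells of exactly 1 rule rests on 592, 686, 563 and 1048 cells.

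Whether the null effect differed between classes was tested in 1 edgeR fit on cells of exactly 1 rule. For Id3 the effect in neural progenitors was lower than that in mesenchymal cells by 0.97 on the log2 scale (−0.97, SE 0.17, adjusted p = 0.021), where 0.682% of 13922 genes were called. In these cells Id3 was at 580 and 468 CPM in control and 1063 and 942 CPM in null mesenchyme, and at 1706 and 1447 CPM in control and 1722 and 1323 CPM in null neural progenitors. The Id1 effect differed in the same direction by −1.04 (SE 0.23, adjusted p = 0.12), which was not called. The Id1 difference was −1.09 without null library 1 and −1.0 without null library 2, and that of Id2 was −0.86 without null library 1. Each of these fits rests on 1 null library. The Id3 difference was not called with cells of several rules kept (−0.80, adjusted p = 0.35), with cells thinned (−0.86, adjusted p = 0.62), without control library 2 (−0.98, adjusted p = 0.12) or without null library 2 (−0.88, adjusted p = 0.27), and was called without control library 1 and without null library 1. For Sox10 and neuronal cells no Id gene passed this test against mesenchyme, with 0.0287% and 1.77% of genes called. In Sox10 cells the effect differed by −1.26 (SE 0.31) for Id1 and −0.13 (SE 0.35) for Id2. For Id3 it differed there by −0.85 (SE 0.18) and for Id4 by −1.48 (SE 0.40), on as few as 18 Sox10 cells in a library. In neuronal cells the values were 0.39, −0.37, 0.33 and −1.09 in the order Id1 to Id4. In the fit on thinned cells the rules were applied again to the thinned counts.

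Shares of mesenchymal cells with a UMI of Hox and Dlx genes were compared at E10.5, without a test. Hoxb3, which marks NCCs of the third and more caudal arches, was found in 26.0% and 17.5% of mesenchymal cells of the controls and in 47.6% and 65.8% of those of the null libraries. Cells with neither Hoxa2 nor Hoxb3 made up 28.2% and 37.0% in controls and 14% and 11.1% in null libraries. Cells with Dlx5 or Dlx6, homeobox genes of the more distal arch, were 48.0% and 44.1% against 24.1% and 6.3%. Of the mesenchymal cells of null library 2, 66.2% also met the neuronal rule. In mesenchymal cells of exactly 1 rule, Hoxb3 was found in 21.5% and 17.1% of control and 43.3% and 53.9% of null cells, neither Hox gene in 30.7% and 37.1% against 14.2% and 14.5%, and Dlx5 or Dlx6 in 52.2% and 44.5% against 30.3% and 9.1%. The shares of the genotypes did not overlap in either set of cells. The part of free RNA in them was not tested. Id levels were compared between these groups within libraries. Over the 6 libraries at E9.5 and E10.5, Hoxb3 cells had more Id2 than cells with neither Hox gene, by 0.32 (SE 0.07, edgeR adjusted p = 0.020), with 7.03% of genes called. That call was lost without either E10.5 control, without the E9.5 control or without null E10.5 library 1, at differences of 0.29 to 0.35. Cells with Hoxa2 and no Hoxb3 gave no Id call against cells with neither, with 0.409% of genes called. Id1 and Id3 were 0.36 (SE 0.15) and 0.45 (SE 0.14) higher in Hoxb3 cells and were not called.

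The genotype difference was therefore taken within each Hox group. In cells with Hoxa2 but no Hoxb3, the pattern of the second arch, Id1 was at 299 and 219 CPM in controls and at 612 and 450 CPM in null libraries. Id2 there was at 223 and 219 CPM against 371 and 454 CPM, Id3 at 545 and 389 against 1073 and 999 CPM, and Id4 at 4.54 and 2.21 against 8.74 and 8.49 CPM. Each null library was above each control for all 4, as it was for 36.0% of genes. The differences were 0.87 (SE 0.30) for Id1, 0.71 (SE 0.24) for Id2, 0.97 (SE 0.27) for Id3 and 1.19 (SE 0.35) for Id4. Their edgeR adjusted p were 0.23, 0.22, 0.16 and 0.18, so that none was called, with 0.623% of genes called. DESeq2 called Id1, Id2 and Id3 in these cells, where it called 3.56% of genes. With the replicate number as a block, edgeR called Id1, Id3 and Id4, in a setting that called many more genes in all. Without null library 1 the differences were 0.79 for Id2 and 0.86 for Id3, and without null library 2 they were 1.14 for Id1 and 1.10 for Id3. Each of these fits rests on 1 null library, and the other Id genes are not given here for them. In Hoxa2 cells of exactly 1 rule the differences were 0.98, 0.86, 0.97 and 0.87, not called by edgeR.

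In Hoxb3 cells Id1 was at 695 and 464 CPM in controls and at 887 and 492 CPM in null libraries, and Id3 at 1341 and 661 against 1533 and 1259 CPM. The groups overlapped for both. Id2, at 371 and 357 against 497 and 386 CPM, and Id4, at 7.50 and 2.98 against 12.6 and 12.0 CPM, did not overlap, a pattern shared by 33.2% of genes. The differences were 0.12 (SE 0.36) for Id1, 0.13 (SE 0.26) for Id2, 0.34 (SE 0.35) for Id3 and 1.08 (SE 0.40) for Id4, none called, with 0.0561% of genes called. Leaving out a library at a time could turn the direction for Id1, Id2 and Id3. In cells with neither Hox gene all 4 Id genes were higher in both null libraries, as were 35.0% of genes, by 0.32, 0.13, 0.52 and 0.67 in the order Id1 to Id4, with edgeR adjusted p of 0.24 to 0.77, and 4.25% of genes were called. Whether the null effect differs between the Hox groups was not tested.

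**Figure D4:**
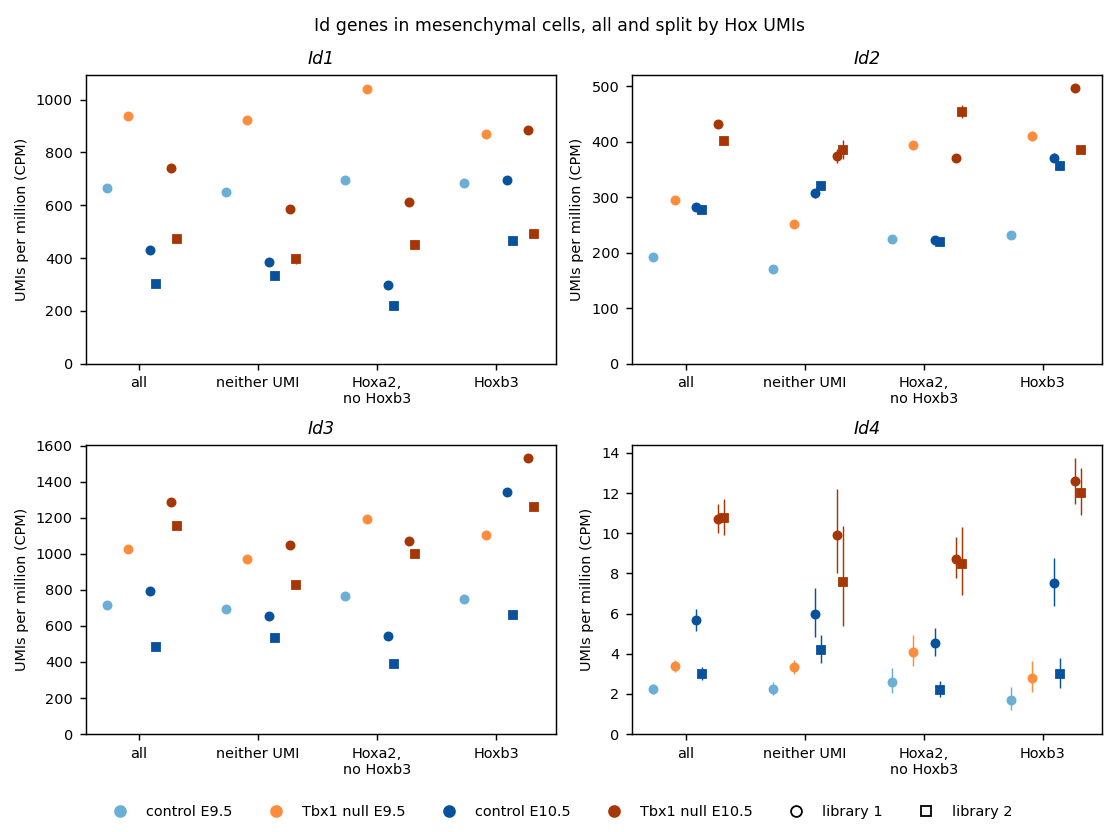
CPM of Id1 to Id4 in mesenchymal cells of 6 libraries, for all cells, for cells with neither Hoxa2 nor Hoxb3, with Hoxa2 and no Hoxb3, and with Hoxb3. Among Hoxa2 cells at E10.5 the null libraries are at 612 and 450 CPM for Id1 and the controls at 299 and 219 CPM.

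Other groupings of the mesenchyme were compared within the same 6 libraries. Smooth muscle cells, with at least 10 UMIs of Acta2 and Tagln together, had 0.98 more Id4 than the rest (SE 0.37, edgeR adjusted p = 0.072) and similar Id1 (−0.08, 95% interval −0.49 to 0.33), with 36.4% of genes called. The Id4 difference was called without null E10.5 library 1 (1.25, adjusted p = 0.014) and without null E10.5 library 2 (1.18, adjusted p = 0.048). They numbered 58 to 168 per library. Cells with Hand2 and Foxf1, genes of the outflow tract mesenchyme, had Id1 at 895 and 984 CPM in control and null cells at E9.5 and at 522, 488, 627 and 427 CPM in the 2 control and 2 null libraries at E10.5. Their differences from cells with neither gene, 0.33 for Id1, 0.28 for Id2, 0.00 for Id3 and 0.68 for Id4, were not called, with 23.2% of genes called. Cells with Dlx5 or Dlx6 were −0.45 from the rest for Id2 (SE 0.15, adjusted p = 0.064), and −0.54 without null E10.5 library 2 (adjusted p = 0.040), with 34.0% of genes called. Cycling cells, with at least 2 UMIs of Mki67 and Top2a together, had less Id4 than cells with none, by −0.69 (SE 0.22, edgeR adjusted p = 0.027), and no call for Id1, Id2 or Id3, with 39.8% of genes called. Id2 was called lower in cycling cells without null E10.5 library 1 (−0.21) and without null E10.5 library 2 (−0.19). The Id4 call was lost when cells were thinned (−0.39) and in 4 of 6 fits that left out 1 library, which were those without control E10.5 library 1, control E10.5 library 2, null E10.5 library 1 and the null E9.5 library, at −0.50 to −0.75.

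At E9.5 each genotype had 1 library and each of these a different kit, so that genotype and kit cannot be told apart and no test was run. All 16 values, 4 genes in 4 classes, were higher in the null library, at ratios of 1.02 to 2.06. Among genes that reached 20 CPM in either library, 56.8% were higher in the null library in mesenchymal, 58.5% in Sox10, 51.8% in neural progenitor and 54.5% in neuronal cells. In cells thinned to 5000 UMIs, classed again on the thinned counts, the ratio was 0.998 for Id1 in neural progenitors. It was 0.934 for Id1 and 0.908 for Id2 in neuronal cells, and above 1 for the other values that could be taken. In mesenchymal cells Id1 was at 666 CPM in the control and 936 CPM in the null library, a ratio of 1.41 (95% interval 1.40 to 1.42, counting error only). Id2 was at 191 and 295 CPM (1.54), Id3 at 715 and 1026 CPM (1.44) and Id4 at 2.24 and 3.39 CPM (1.51). In neural progenitors Id1 was at 715 and 726 CPM (1.02) and Id3 at 1498 and 1571 CPM (1.05). A ratio above 1.5 was reached by 5 of the 16 values, those of Id2 and Id4 in mesenchymal cells, Id3 and Id4 in Sox10 cells and Id4 in neuronal cells. With TMM scaling the mesenchymal ratios were 1.49 and 1.46, below 1.5. Those of Id3 and Id4 in Sox10 cells were then 1.51 and 1.96, and that of Id4 in neuronal cells 1.98. In cells of exactly 1 rule and in thinned cells the ratio of Id3 in Sox10 cells was 1.44 and 1.38, below 1.5. That of Id2 in mesenchymal cells was 1.64 and 1.71. The Id4 ratios over all cells rest on 88 null and 53 control UMIs in Sox10 cells and on 86 and 62 in neuronal cells. Among the genes at 20 CPM or more, 0.69% were past 1.5-fold higher in mesenchymal, 0.646% in Sox10, 0.411% in neural progenitor and 0.824% in neuronal cells. Among these Id values only Id2 in mesenchyme and Id3 in Sox10 cells were at that level of counts. In cells of exactly 1 rule, Id1, Id2 and Id3 of neuronal cells were lower in the null library, at ratios of 0.562, 0.816 and 0.759. Over the Hox groups at E9.5 the Id2 ratio was 1.77 in Hoxb3 cells, 1.76 in Hoxa2 cells and 1.47 in cells with neither.

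Genes of the BMP and bHLH pathways were read from lists chosen with earlier results known. Between null and control mesenchyme at E10.5, edgeR called 0.183% of all genes. Of 7 BMP ligands, 6 receptors, 4 signal transducers, 13 inhibitors and feedback genes and 11 other BMP targets it called none. At so small a share the lack of a call does not show that these genes were unchanged. The median difference was −0.18 for the ligands, −0.38 for the receptors, −0.17 for the signal transducers, 0.15 for the inhibitors and feedback genes and 0.52 for the other BMP targets, beside −0.02 for all genes. The median of the other BMP targets was 1.10 in Hoxa2 cells, −0.02 in Hoxb3 cells and 0.57 in cells with neither Hox gene. In Hoxa2 cells Gata3 rose (1.85, SE 0.30, adjusted p = 0.037), from 6.73 and 5.69 CPM to 17.7 and 34.2 CPM. The BMP receptor gene Bmpr1b fell there (−1.78, SE 0.23, adjusted p = 0.014), from 21.7 and 21.8 CPM to 6.43 and 8.07 CPM.

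In cells with neither Hox gene edgeR called 556 of all genes, the 4.25% given above, and 88 in cells of exactly 1 rule and 78 in thinned cells. The BMP ligand gene Bmp7 rose from 3.45 and 1.74 CPM to 16.8 and 13.8 CPM (2.48, SE 0.34, edgeR adjusted p = 0.0020). The BMP antagonist Nog rose from 3.82 and 1.76 CPM to 15.7 and 14 CPM (2.32, SE 0.35), and the antagonist Grem1 fell from 8.74 and 5.04 CPM to 0.756 and 1.17 CPM (−3.02, SE 0.46). Bmpr1b fell by 1.47 (SE 0.31). In the bHLH list Atoh1 (3.25), Neurod1 (2.76), Neurog1 (6.08, with controls at 0 and 0.0854 CPM) and Neurog2 (4.33), which drive neuronal fates, and the Notch target Heyl (2.68) rose there, and none of the 21 genes tested fell. In cells of exactly 1 rule Bmp7 (2.51), Nog (2.29) and Grem1 (−3.09) were still called, and Bmpr1b (−1.37), Atoh1 (3.0), Neurog2 (2.78) and Heyl (1.31) were not. In thinned cells Atoh1 (2.31) and Bmpr1b (−1.46) were still called, and Bmp7 (0.78), Nog (1.62), Grem1 (−1.87) and Neurog2 (2.87) were not. The rules were applied again to the thinned counts there, so that cells could change group as well as lose depth. Neurod1 and Neurog1 were not among the genes tested in either. Over all mesenchymal cells, the neural progenitor and Sox10 markers given above were higher in both null libraries, and the neuronal markers in null library 2 only. The part of these markers in the rises was not tested.

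Between classes, bHLH genes were split by lineage. Neuronal cells had 16 of 24 bHLH genes higher and 6 lower than mesenchymal cells, with a list median of 2.73 beside 0.02 for all genes, of which 32.8% were called higher and 31.0% lower. Neurod1 (9.55), Nhlh1 (9.19), Neurod4 (8.62), Nhlh2 (8.54) and Neurog2 (7.84), neuronal bHLH genes, had the largest differences of the list, and Twist2, a mesenchymal bHLH gene, was lower (−6.28). Among other BMP targets 9 of 10 tested were lower in Sox10 than in mesenchymal cells, with a median of −2.60 beside −0.05 for all genes, of which 9.77% were called lower. Of the BMP ligands 4 of 6 tested were lower in Sox10 cells, Bmp2 (−5.77) and Bmp4 (−4.39) among them, and Bmp7 was higher (2.43). Hes5, a Notch target of neural progenitors, exceeded mesenchymal cells by 5.52 in neural progenitors, and Olig3, a dorsal neural tube factor, by 4.83.

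The genes whose levels ran most like an Id gene were taken over the 28 values of 7 libraries and 4 classes, from 5516 genes with a mean of at least 20 CPM. The values share libraries, and cells of several rules enter more than 1 of them, so that the correlations are a description. Msx2, a homeobox gene downstream of BMP, ran most like Id1 (Pearson r = 0.942 of log2(CPM + 1)), before Car14, a carbonic anhydrase gene (0.789), and Id3 (0.759). Id3 ran most like Wnt1, the dorsal neural tube ligand whose regulatory sequence drives the Cre (0.881), Rbpms2 (0.847) and Tpbg (0.835). Id2 ran most like Pdk3 (0.807), Gapdh (0.791) and Spc25 (0.786). Id4 ran most like Selenot (0.891), Serinc3 (0.890) and Tpp1 (0.884). Among the Id genes r was 0.709 for Id1 and Id2, 0.608 for Id2 and Id3, and between −0.197 and 0.306 for Id4 with the others.

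Msx2 was at 36.6 CPM at E8.5 and at 49.0 and 84.3 CPM in control and null mesenchyme at E9.5. At E10.5 it was at 31.7 and 22.1 CPM in control and 86.6 and 35.2 CPM in null mesenchyme, so that both null libraries were above both controls, and the difference of 1.04 (SE 0.51, edgeR adjusted p = 0.41) was not called. In Sox10 cells Msx2 was at 32.6 CPM at E8.5 and at 1.23 to 5.36 CPM at E10.5. It was lower in Sox10 than in mesenchymal cells by 2.98 (−2.98, SE 0.57, adjusted p = 0.00081) in cells of exactly 1 rule.

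**Figure D5:**
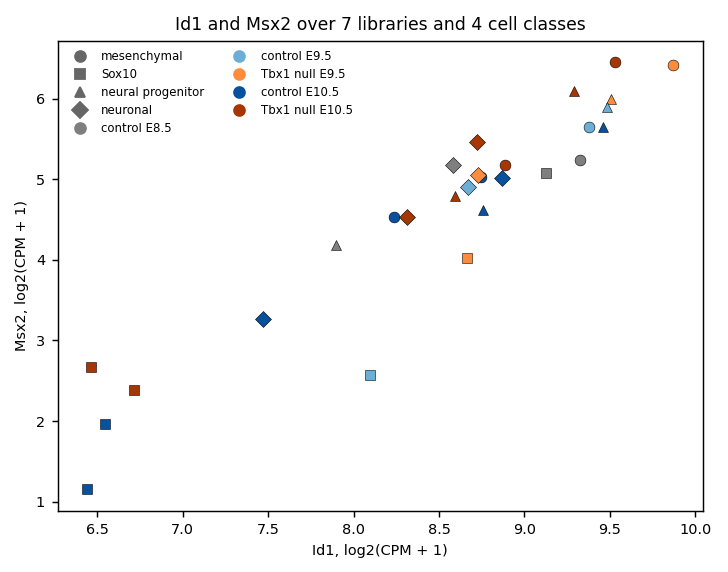
Id1 against Msx2, both as log2(CPM + 1), in 7 libraries and 4 classes (28 points, Pearson r = 0.942). Sox10 cells at E10.5 lie at the low end of both genes, with Id1 at 85.8 to 104 CPM.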

How the data were processed

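Per the submitters' notes the reads were processed with Cell Ranger 6.0.1 against mm10, and the authors deposited filtered matrices of UMI counts per gene and cell barcode, 1 per library. Barcodes were kept when 1000 or more genes were detected and mitochondrial UMIs did not exceed 10%, and doublets were removed with Scrublet in scanpy 1.11.5 at 0.8% per 1000 barcodes. UMIs were summed per library and class, since cells are not replicates. Sums were tested with edgeR 4.0.16 (TMM, filterByExpr, robust quasi-likelihood fit, R 4.3.3) and Benjamini-Hochberg adjustment over all genes, with DESeq2 1.42.0 as an alternative. The SE is the fold change divided by the root of the F statistic, and 95% intervals of fold changes are normal intervals from it. Pooled levels carry exact Poisson intervals that cover counting error only. Thinning to 5000 UMIs used a fixed seed and left out shallower cells. For thinned levels, ratios and tests the classes and groups were set again on the thinned counts, so that membership changed along with depth. The shares of cells with a UMI and the shares with several Id genes kept the classes of the full counts. The model fits were tested on simulated data. The alternatives were other filters on cells and counts, other scaling, other cell sets, a replicate block and each library left out in turn.

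Named genes are the 4 Id genes, Tbx1, the 3 genes with the highest Pearson correlation with each Id gene, pathway genes called in a comparison (at most the 5 largest each way) and the genes of the class rules. A result on the bHLH list is not reported here. The members and gene lists were chosen with earlier results of these data known. The 2 E9.5 libraries were compared without a test, and the E8.5 library entered no test other than the differences between classes.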

Additional observations from a re-analysis of the deposited data

Results flagged for a closer look

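The null effect on Id3 at E10.5 differed between neural progenitor and mesenchymal cells of exactly 1 rule by −0.97 on the log2 scale, a difference called by edgeR in a test of the interaction itself. The call was lost with cells of several rules kept (edgeR adjusted p = 0.35), with cells thinned (0.62), without control library 2 (0.12) and without null library 2 (0.27). From mean log2 CPM, the Id3 effect was 0.94 in mesenchymal and −0.058 in neural progenitor cells. In Sox10 cells it was 0.058, and the test of its difference from mesenchymal cells gave −0.85 (SE 0.18), which was not called. No group had 4 or more libraries, so that no library could be tested as an outlier within its group.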

How the results depend on the processing

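All values here are log2 fold changes unless called counts. Id calls under an alternative are listed without the share of all genes called, and some alternatives called many more genes. The causes of the changes listed were not tested. Across single genes, direction and side of the threshold were kept in 229 values of the null effect in the 4 classes (25 turned and 2 became called), 129 in the Hox groups (4 turned, 11 became called), 265 of the class differences (14 turned, 21 became called, 12 lost the call), 62 of the differences between null effects (3 turned, 3 became called, 4 lost the call) and 175 of the mesenchymal groupings (24 turned, 8 became called, 9 lost the call). Beyond their counting interval or spread moved 29 of the E9.5 ratios, 7 median levels and 28 median shares, while 18, 9 and 4 did not. At E10.5 the tests are limited by 2 libraries per genotype, and Id4 rests on few UMIs per cell.

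With overlapping cells kept, neural progenitor minus mesenchymal became −0.11 for Id1 and −0.20 for Id2, neuronal minus Sox10 0.041 for Id2 and 0.65 for Id3, and the neuronal difference in null effect −0.29 for Id1 and −0.38 for Id3. The Id genes called then numbered 3 for Sox10 minus mesenchymal, 1 each for neuronal minus Sox10, neuronal minus mesenchymal and neuronal minus neural progenitor, and 0 for the difference in null effect of neural progenitors. With E10.5 libraries only, neural progenitor minus mesenchymal was −0.24 for Id2 and neuronal minus Sox10 −0.36 for Id1, with 4 genes called for Sox10 minus mesenchymal and 3 for neuronal minus Sox10. With control libraries only, 0 genes were called for Sox10 minus mesenchymal and for neural progenitor minus mesenchymal, 1 for neuronal minus mesenchymal and 2 for neuronal minus neural progenitor.

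Without the filter on low counts, neural progenitor minus mesenchymal was −0.061 for Id2, the Hand2 and Foxf1 difference −0.042 and the Hoxa2 minus neither difference −0.0038 for Id3, and Id4 was called in null mesenchyme (1.11), as 1 gene was in Hoxa2 cells. With cells thinned to 5000 UMIs, neural progenitor minus mesenchymal was −0.10 for Id2, neuronal minus Sox10 −0.0064 for Id1 and 0.050 for Id4, the null effect in Sox10 cells −0.035 for Id1 and −0.057 for Id4, the Hoxa2 minus neither difference of Id3 −0.040, and cycling minus other cells −0.047 for Id1 and −0.050 for Id3. Thinning gave 1 call each for neuronal minus Sox10, the Dlx5 and Dlx6 grouping and smooth muscle, and 0 for cycling cells and for the difference in null effect of neural progenitors.

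In cells of exactly 1 rule the null effect was −0.35 for Id1 and −0.74 for Id4 in Sox10 cells and −0.39 for Id4 in neuronal cells. Without cells holding a UMI of other-cell markers Id1 in Sox10 cells was −0.012. With 6 libraries, stage as a term and cells of exactly 1 rule, alternatives chosen after seeing the data, it was −0.23 for Id4 in Sox10, 0.0075 for Id2 in neural progenitor and −0.080 for Id4 in neuronal cells. DESeq2 called Id4 in null mesenchyme (1.16) and 3 genes in Hoxa2 cells. DESeq2 size factors in edgeR gave −0.065 for Id3 in cycling cells and 2 Id calls there.

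The same library numbers occur in both genotypes at E10.5. Deviations from the genotype means correlated between same-numbered libraries at 0.178 in mesenchymal, 0.358 in Sox10, 0.343 in neural progenitor and 0.421 in neuronal cells, and at 0.067 to 0.288 in the Hox groups. With 2 pairs and no label that ties them, the libraries share only a number. The fit with the replicate block called 3 Id genes in Hoxa2 cells (Id1 0.85, Id3 0.99 and Id4 1.25) and none in the other classes and groups.

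Leaving out 1 library at a time gave ranges that crossed 0. For class differences they were −0.16 to 0.12 for Id2, neural progenitor minus mesenchymal, and −0.21 to 0.30 for Id1, neuronal minus Sox10. For the null effect they were, in Sox10 cells, −0.059 to 0.17 for Id1, −0.013 to 0.53 for Id2 and −0.054 to 0.12 for Id3. In neural progenitors they were −0.66 to 0.20 for Id1, −0.38 to 0.20 for Id2, −0.48 to 0.42 for Id3 and −0.12 to 0.32 for Id4. In neuronal cells they were −0.43 to 1.03 for Id1, −0.00087 to 0.69 for Id2 and −0.31 to 1.22 for Id3. In Hoxb3 cells they were −0.40 to 0.52 for Id1, −0.087 to 0.35 for Id2 and −0.073 to 0.89 for Id3. The Id2 effect in Sox10 cells minus that in mesenchymal cells ranged from −1.11 to 0.24.

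Among mesenchymal groupings the ranges were −0.15 to 0.15 for Id3 with Hand2 and Foxf1, −0.12 to 0.022 for Id1, −0.054 to 0.15 for Id2, −0.047 to 0.086 for Id3 and −0.22 to 0.0029 for Id4 in Hoxa2 cells minus those with neither, −0.086 to 0.13 for Id4 in Hoxb3 cells, −0.22 to 0.066 for Id1 and −0.0013 to 0.24 for Id3 in smooth muscle, and −0.050 to 0.045 for Id3 in cycling cells. The number of Id genes called ranged from 1 to 4 for Sox10 minus mesenchymal, 0 to 2 for neuronal minus Sox10, 0 to 3 for the difference in null effect of neural progenitors, 0 to 2 for the null effect in Hoxa2 cells, 0 to 1 each for the Dlx5 and Dlx6, Hoxb3 and smooth muscle groupings, and 0 to 2 for cycling cells.

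Counts over all genes for the null effect moved more. In mesenchymal cells edgeR called 29 genes, against 736 with DESeq2, 1427 without the filter, 230 with the replicate block, 689 without null library 1 and 93 without null library 2. Sox10 cells gave 12, against 73, 214 and 561 with DESeq2, without the filter and with the block, neural progenitors 0, against 40, 148 and 26, and neuronal cells 2, against 78, 329 and 91. Hoxa2 cells gave 89, against 508, 866 and 949, Hoxb3 cells 8, against 160, 101 and 78, and cells with neither 556, against 588, 1246 and 1764, with 78 after thinning and 88 in cells of exactly 1 rule.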
